A study of Drosophila melanogaster with 3 samples.

Results

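Chromosome arm 3R, the right arm of the third chromosome of Drosophila melanogaster, carried 1170 of the 4851 Hr78-GFP binding peaks deposited for the series, or 24.1%. The members are all peaks whose sequence name is 3R, without the separate heterochromatic sequence 3RHet, and no measured value entered that choice. The study applied chromatin immunoprecipitation and sequencing (ChIP-seq) to whole wandering larvae of the last instar of the strain Hr78-GFP, whose labels give the genotype PBac{y[+]-attP-3B}VK00037, a docking site for transgenes, and a transgene made of the Hr78 genomic coding region. It holds 2 libraries precipitated with the GFP antibody ab290 and 1 input DNA library of the same strain and stage, and the growth protocol names y; bw cn sp flies. The sex of the larvae is labelled unknown, and all larval tissues are mixed in the chromatin, so no peak can be given to a tissue.

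Hr78 is an orphan nuclear receptor, a DNA-binding transcription factor with no established ligand, related to the vertebrate testicular receptors. In flies it is known to be needed at the onset of metamorphosis, and its protein was seen at many puffs of the salivary gland polytene chromosomes. Separately, Hr78 can bind some of the sequences bound by the ecdysone receptor. GFP, the green fluorescent protein, serves here as the handle by which the antibody pulls down the tagged receptor with the DNA crosslinked to it. A peak is a stretch of genome where the peak caller found more sequenced fragments than its background. Coordinates on 3R run from the centromere (low) to the telomere (high).

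The peaks of the series form 1 list that names no sample and has no value per replicate. None of the values below therefore has a spread between replicates, and the sequencing depth is unknown. All comparisons are therefore descriptions without a test, and no difference between arms or stretches is called. The score printed for each peak is the authors' own, and it serves here only for ranking and describing the peaks of this one list. Exact 95% Clopper-Pearson intervals of shares treat peaks as independent and cover counting error only. Positions are in FlyBase release 5, and peaks are named by position because the gene table at hand is of release 6.

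Hr78-GFP peaks on 3R were short, mostly low in score, and spread from one end of the arm to the other. The first peak started at base 286 and the last ended at 27878639, so that the arm spanned 27.9 Mb with 42.0 peaks per Mb. Together the peaks covered 637 kb, or 2.29% of this span. The median width was 392 bp, with quartiles of 271 and 653 bp and extremes of 201 and 3948 bp. The median score was 13.4, with quartiles of 10.2 and 23.4 and extremes of 5.42 and 329.28. The gap between the upper quartile and the highest value shows that a small number of peaks carried the high scores.

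Among the large arms, 3R ranked next to the densest and had the lowest typical score. The other 4 large arms together had 37.9 peaks per Mb, and single arms ranged from 30.8 on X to 46.3 on 2R, with 34.4 on 2L and 40.4 on 3L. The median score of 3R was the lowest of the arms, next to 13.71 on 3L, 14.03 on 2L and 2R and 17.05 on X. Of the 3R peaks, 192 (16.4%, exact interval 14.3% to 18.7%) reached the 1000th highest score of the list, which was 33.59, against 20.8% of all peaks (1008 with ties). The share was 16.8% on 3L, 18.6% on 2R, 20.2% on 2L, 26.7% on X and 45.4% on chromosome 4. The 3R value is thus close to that of 3L, and the intervals of the 2 arms overlap widely. Just inside this score was the 3R peak at 12060451 to 12062483 with 33.86, and just outside was the peak at 7474197 to 7476667 with 33.13. Of the 100 highest scores of the list, 17 were on 3R. This was 1.45% (0.849% to 2.32%) of the 3R peaks, against 2.06% of all peaks.

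Peaks were denser toward the centromere than toward the telomere, while their typical score was close to level along the arm. The arm was divided into 3 equal stretches of 9.29 Mb. The proximal stretch held 449 peaks (48.3 per Mb), the middle stretch 408 (43.9 per Mb) and the distal stretch 313 (33.7 per Mb). The proximal density was 1.43 times the distal one. The first 2 Mb of the proximal stretch alone had 61.5 peaks per Mb, and the ratio without them was not worked out. Median scores were 13.08, 14.03 and 13.4 in the same order, and median widths were 387, 407.5 and 385 bp. The share of peaks among the 1000 highest scores was 16.5% (13.2% to 20.2%) in the proximal stretch, 15.4% (12.1% to 19.3%) in the middle and 17.6% (13.5% to 22.2%) in the distal one. Strong peaks were sparser toward the telomere too, at 7.96, 6.78 and 5.92 per Mb.

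**Figure D1:**
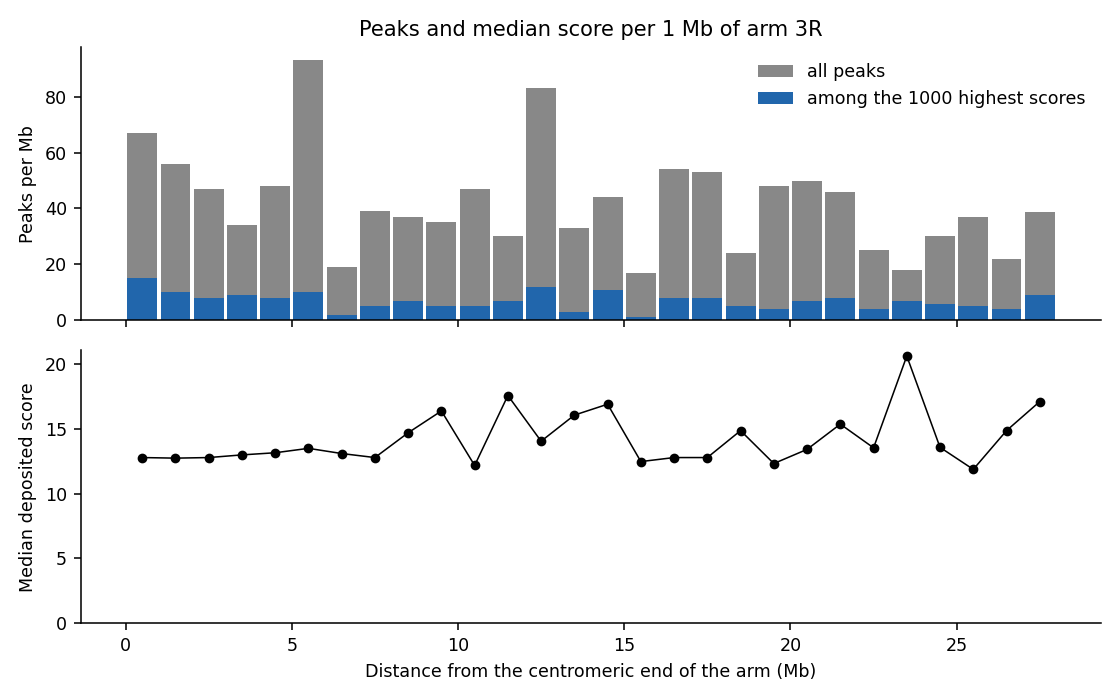
Peaks per Mb (upper panel, all peaks in grey and those among the 1000 highest scores of the list in blue) and the median deposited score (lower panel) in each 1 Mb of arm 3R, against the distance from the centromeric end in Mb; the last bin is shorter and is scaled to 1 Mb. Counts per bin ranged from 17 to 93, while the median score ranged only from 11.86 to 20.59.

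Density was uneven at the scale of 1 Mb and did not fall steadily along the arm. The 28 stretches of 1 Mb held 17 to 93 peaks, with a median of 38, a range of 5.47-fold. The fullest was 5000001 to 6000000 with 93 peaks, followed by 12000001 to 13000000 with 83 and by the first Mb with 67. These 3 stretches held 243 peaks, 20.8% of the arm. The sparsest were 15000001 to 16000000 with 17 peaks, 23000001 to 24000000 with 18 and 6000001 to 7000000 with 19. The fullest and one of the sparsest stretches are therefore direct neighbours. Across the 28 stretches, Spearman's rho was -0.38 between position and peaks per Mb and 0.29 between position and median score; adjoining stretches share one peak list and are not independent.

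Crowded stretches did not hold stronger peaks. Across the same stretches rho was 0.69 between the number of peaks and the number among the 1000 highest, but -0.16 between the number of peaks and the share among the 1000 highest, and -0.38 with the median score. In the fullest Mb 10 of 93 peaks (10.8%) were among the 1000 highest. In the sparse Mb from 23000001 to 24000000 it was 7 of 18 (38.9%), with the highest median score of the arm, 20.59. The Mb from 15000001 to 16000000 was the opposite case, with 1 strong peak among 17, and this peak was the second strongest of the arm, at 292.41.

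The 2 most crowded Mb differed in layout. In the Mb from 5000001, peaks were spread over all of its 10 windows of 100 kb, which held 3 to 17 peaks each, and 8 of them held 5 or more. In the Mb from 12000001, a single window held 37 peaks and the next one 13, and the other 8 windows held 33 in all, between 0 and 16 each.

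At the centromeric end of the 3R sequence, peaks were packed in the first 1.5 Mb and sparse in the 0.5 Mb after it. Density was 72.0 per Mb in the first 0.5 Mb, 62.0 in the second and 98.0 in the third, and then 14 per Mb between 1.5 and 2 Mb, where 7 peaks lay. The 2 Mb after that held 40.5 peaks per Mb. The median scores of the first 3 steps, 12.01, 13.71 and 12.46, were at the level of the whole arm. These 3 steps held 3.08%, 2.65% and 4.19% of the peaks of the arm, and 5 of the 15 highest-scoring peaks of 3R lay in them. This count is small, and the limit of 1.5 Mb follows the drop in density seen in the same list, so it is not read as a trait of the stretch. At the other end, the last 2 Mb held 64 peaks, or 32.0 per Mb, with a median score of 14.09.

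**Figure D2:**
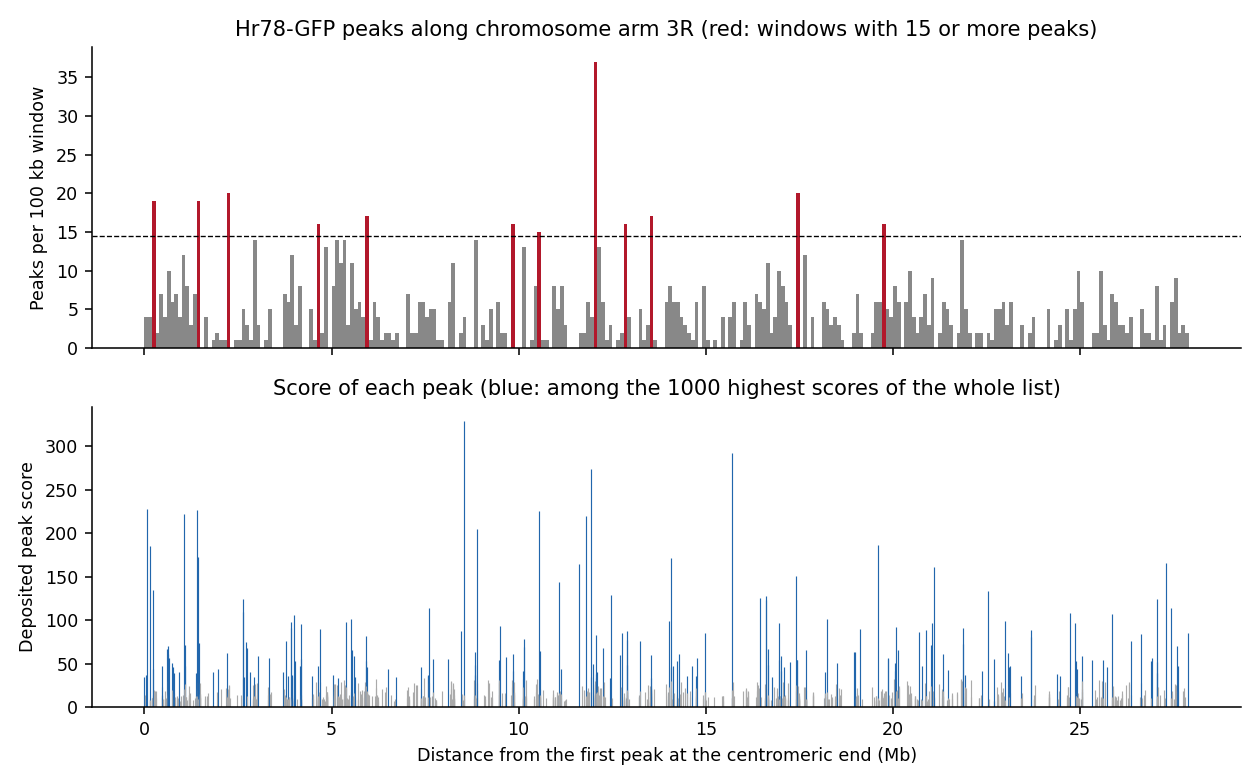
Upper panel, number of peaks in each 100 kb window of arm 3R, with the 12 windows of 15 or more peaks in red; lower panel, the deposited score of each of the 1170 peaks, with those among the 1000 highest of the list in blue. Both are drawn against the distance in Mb from the first peak at the centromeric end; the window with 37 peaks holds none of the 15 highest scores.

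At the scale of 100 kb, a few windows were crowded and many were empty. Of 279 windows, 12 (4.30%) held at least 15 peaks, against 3.83% of the 1200 windows on the 6 arms, so 3R had about the common share of such windows. The count depends on where windows begin and on how peaks are counted. With windows shifted by 50 kb it was 6 (2.15%, against 2.92% on the 6 arms), and with peaks at most 500 bp apart merged it was 2. The 12 windows held 228 peaks, 19.5% of the arm. The median window held 3 peaks, 64 windows held none and 32 held 1. Counted from the fullest down, 47 windows (16.8%) were enough to hold as many peaks as all the rest. The variance of the window counts was 5.41 times their mean of 4.19.

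The dense windows lay mostly on the centromeric side, with 10 of 12 before the midpoint of the arm, and 6 of 6 after the shift by 50 kb. Cut at the midpoint, the arm had 1.30 times as many peaks per Mb on the centromeric as on the telomeric side. Whether the placement of these few windows goes beyond that was not tested. After the window from 12000001 with 37 peaks came those from 2200001 and from 17400001 with 20 peaks each. The windows from 200001 and from 1400001 held 19, those from 5900001 and from 13500001 held 17, and those from 4600001, 9800001, 12800001 and 19700001 held 16. The window from 10500001, with 15, was the last inside the limit. Just outside were 5 windows with 14 peaks, which start at 2900001, 5100001, 5300001, 8800001 and 21800001.

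Several dense windows stood alone, and their peaks were not strong throughout. The windows from 9800001 and from 17400001 had no peak in the 100 kb on either side, and the one from 2200001 had 1 before and 0 after it. Peaks in dense windows had a median score of 13.08, and 12.3% (8.32% to 17.3%) of them were among the 1000 highest; in the other windows the median was 13.495 and the share 17.4% (15.0% to 20.0%). Median widths were 411.5 and 389.5 bp. The windows differed among themselves. The one from 19700001 held 16 peaks without a single one among the 1000 highest, its best score being 18.47, whereas the one from 1400001 held 4, among them the peak at 1416419 to 1417738 (score 227.15) and the one at 1432043 to 1432804 (173.11).

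The fullest window was a compact array of mostly modest peaks, with 4 among the 1000 highest and 1 of these well above the others. Its 37 peaks covered 20.5 kb, and 36 of them lay within 58.3 kb, from 12028119 to 12086440. The gaps between neighbours had a median of 428 bp, and 19 of the 36 gaps were of 500 bp or less. In any stretch of 20 kb of the arm, the most peaks found were 19, from 12054597 to 12074674, and in any 50 kb the most were 34, from 12031993 to 12081387, both inside this array. The strongest peak, at 12066790 to 12068631, was 1842 bp wide with a score of 83.07, and stood 326th in the whole list. The peaks on either side of it scored 12.46 and 10.11. The others among the 1000 highest were the peaks at 12098665 to 12099531 (score 40.15), 12075590 to 12076582 (37.76) and 12060451 to 12062483 (33.86). The remaining scores went down to 7.48, and 16 of the 37 were below the median of the arm; the median of the window, 14.03, was slightly above it.

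**Figure D3:**
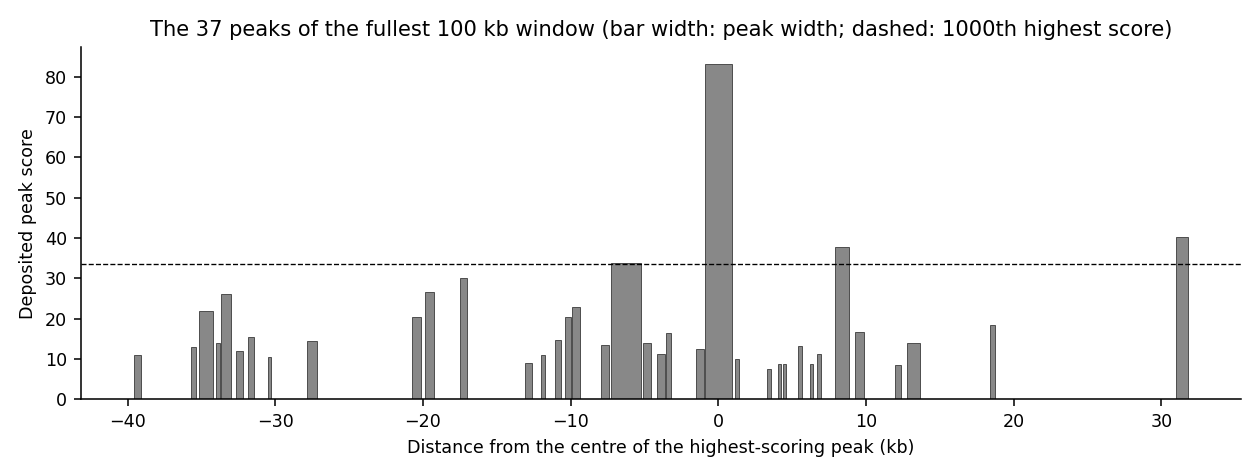
Deposited score of the 37 peaks of the 100 kb window from 12000001, against the distance in kb from the centre of its highest-scoring peak; the width of each bar is the width of the peak and the dashed line is the 1000th highest score of the list, 33.59. Only 4 bars reach the line, and all but 1 of the peaks lie between -39.3 and 18.6 kb.

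The stretch just before this array had the reverse make-up, few peaks and several of the strongest of the arm; it was picked out after its values had been seen. It begins with the peak at 11619294 to 11620620, which scored 164.84 and stood at the end of the longest peak-free stretch of 3R. From there to 11972865, over 354 kb, there were 14 peaks with a median score of 21.05, and 5 of them (35.7%) were among the 1000 highest. Besides the first one, they included the peak at 11798182 to 11799829 with a score of 220.38 and the peak at 11924739 to 11926425 with 274.35. A gap of 55.3 kb separated this stretch from the array.

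Peaks on 3R lay at very unequal distances. Between the centres of neighbouring peaks the median distance was 5758 bp over 1169 pairs, whereas the mean was 23847 bp, 4.14 times as long. The 10th percentile of the distances was 682 bp and the 90th percentile 63370 bp. Neighbours within 1000 bp made up 19.1% of the pairs (223), and those more than 100 kb apart 5.90% (69). The other large arms had 12.6% (X) to 18.6% (3L) of pairs within 1000 bp and median distances of 5432 (3L) to 9292 bp (X). No 2 peaks on any of the 6 arms were closer than 50 bp and no peak was narrower than 201 bp, so the list itself sets a floor, and the shortest distance between centres on 3R was 302 bp.

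**Figure D4:**
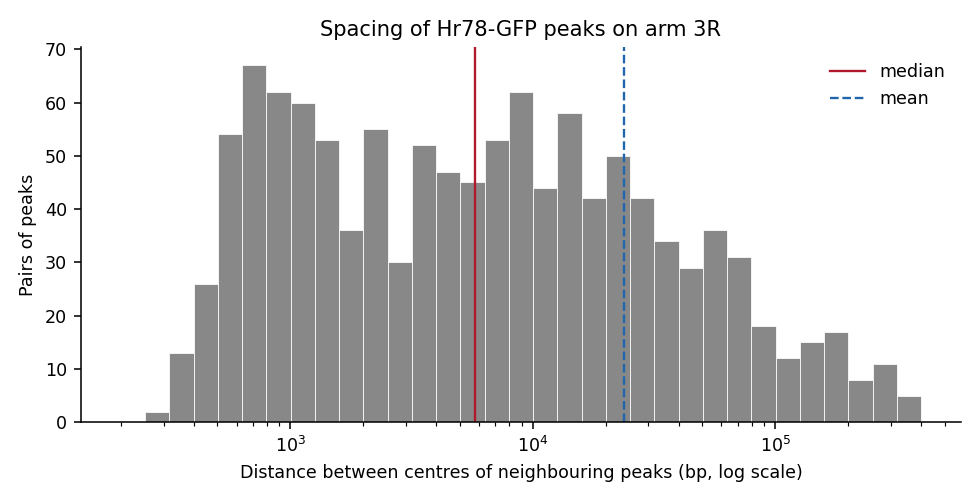
Number of pairs of neighbouring 3R peaks by the distance between their centres in bp, on a log scale, with the median (5758 bp, solid line) and the mean (23847 bp, dashed line). The distances spread over 3 orders of magnitude, from 302 to 366738 bp, with no single dominant distance.

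Runs of adjoining peaks were short. With peaks joined when at most 500 bp apart, the 1170 peaks fell into 907 intervals, of which 719 were single peaks. The other 188 were groups, 137 with 2 peaks, 35 with 3, 11 with 4, 3 with 5, 1 with 6 and 1 with 7, which together held 451 peaks (38.5%). In the 51 groups of 3 or more peaks, the highest-scoring peak was also the widest in 34 (66.7%, 52.1% to 79.2%). Width and score rose together across all 3R peaks (Spearman's rho 0.73), so this is not read as a trait of groups. The highest-scoring peak lay inside the group rather than at an edge in 21 (41.2%), and inner places made up 42.4% of all places. The highest peak was thus found at an edge about as often as edge places occur.

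The 5 groups of 5 or more peaks came in different forms. The group of 7, from 13525642 to 13533121, began with a peak 2671 bp wide and a score of 34.04, and its other 6 scores lay between 11.86 and 24.58. Another 2 groups belong to the fullest window. One of them, with 6 peaks from 12031993 to 12036262, had scores of 11.86 to 26.21, and the other, with 5 peaks from 12059747 to 12064500, had a best score of 33.86 and a next best of 16.36. The 5 peaks from 4878650 to 4882638 were all weak, with scores of 7.98 to 17.05. The 5 peaks from 27044081 to 27049133, close to the telomere, were the strong case. In order they scored 23.26, 124.48, 52.37, 39.19 and 9.72, so that 3 of the 5 were above 33.59.

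Peaks without near neighbours scored higher than close ones. No other centre lay within 20 kb of 117 peaks of 3R, whose median score was 20.68, and 28.2% (20.3% to 37.3%) were among the 1000 highest. The 594 peaks with another within 2 kb had a median of 12.77 and a share of 11.6% (9.15% to 14.5%), and the 391 within 1 kb had a median of 12.21 and a share of 5.37% (3.36% to 8.09%). Median widths were 396, 391 and 356 bp. Wide peaks cannot have close centres, and the part of width in this difference was not tested. Strong peaks were spaced more widely by construction, as they are fewer on the same span. Their spacing is not read as isolation. Between neighbouring 3R peaks among the 1000 highest, the median distance was 92.6 kb, and 31 of the 192 (16.1%) had another within 5 kb. The longest stretch without one ran from 15687862 to 16447356 and held 29 weaker peaks.

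The strongest single sites were peaks of about 1 to 2 kb, not the widest of the arm. The highest 3R score, 329.28, was that of a 1173 bp peak at 8537793 to 8538965, the second highest of the whole list, whose nearest neighbour, 6.93 kb away, scored 14.68. The peak at 15686774 to 15687862, 1089 bp wide, scored 292.41 and stood 4th in the list. The peak at 11924739 to 11926425, 1687 bp wide, scored 274.35 and stood 5th. None of these 3 lay in a dense window, as each window held 4 peaks.

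Scores then dropped to a set of 6 peaks between 204.53 and 228.04. In the first 1.5 Mb these were the peaks at 57720 to 59122 (228.04), at 1416419 to 1417738 (227.15) and at 1048808 to 1050246 (222.57). Farther along the arm they were the peak at 8889431 to 8890455 (204.53), still in the proximal stretch, and, in the middle stretch, those at 10549015 to 10550387 (225.45) and at 11798182 to 11799829 (220.38). The list of 15 was completed by the peaks at 19606910 to 19608087 (186.63), 159494 to 160383 (185.02), 1432043 to 1432804 (173.11), 14068968 to 14071117 (171.56), 27283416 to 27284539 (166.11) and 11619294 to 11620620 (164.84). The next peak, just outside, was at 21091130 to 21091913 with 161.65.

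These 15 peaks were 762 to 2150 bp wide, with a median of 1320 bp. They lay 7 in the proximal stretch, 6 in the middle and 2 in the distal stretch. Of the 15, 3 stood in dense windows, about the share of all 3R peaks there (19.5%), and 0 in the fullest one. For 13 of them another peak lay within 10 kb, as for 80.3% of all 3R peaks, and in 9 cases the nearest neighbour scored below the median of the arm, as for 51.3% of all. The nearest peak was 0.786 to 63.3 kb away, with a median of 3.37 kb, against 1.84 kb for all 3R peaks. With counts this small, neither is read as a trait of the strong sites. The peak at 11619294, with 63.3 kb to the next one, was the most isolated of them.

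Width and score went together, but the widest and the strongest peaks were different ones. Spearman's rho between width and score was 0.73 across the 1170 peaks, which are not independent. Of 371 peaks under 300 bp, 0 were among the 1000 highest, which allows a share of up to 0.989% (upper end of the exact interval). The share was 4.80% from 300 to under 500 bp, 28.1% from 500 to under 1000 bp, 66.1% from 1000 to under 2000 bp, and 81.3% (13 of 16) at 2000 bp or more. Peaks of 1000 bp or more numbered 125 on 3R (10.7%, 8.97% to 12.6%), against 12.3% in the whole list, and made up 29.5% of the covered length. The limit of 1000 bp fell between peaks of 998 and 1018 bp. A wide base was not needed for a high score, as the peak at 159494 to 160383 reached 185.02 with 890 bp.

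**Figure D5:**
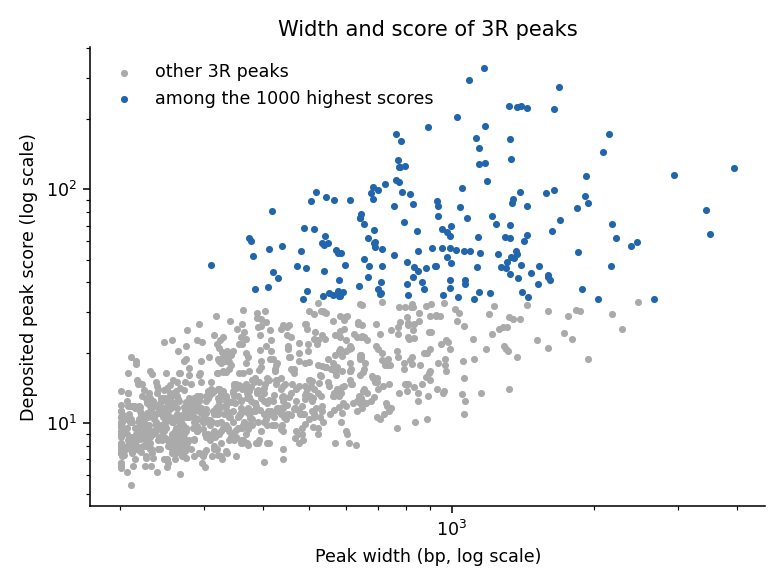
Width (bp, log scale) and deposited score (log scale) of each 3R peak, with the 192 peaks among the 1000 highest scores of the list in blue. Wider peaks have higher median scores, from 10.11 under 300 bp to 60.74 at 2000 bp or more, but the highest single scores belong to peaks of 1000 to under 2000 bp, and those of 2000 bp or more reach at most 171.56.

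The widest peak of the arm, 3948 bp at 16607078 to 16611025, scored 123.06. It was followed by 3513 bp at 10563295 to 10566807 (score 64.53), 3431 bp at 5912648 to 5916078 (81.83) and 2947 bp at 7610986 to 7613932 (114.61). The others of the 10 widest were 2671 bp at 13525642 to 13528312 (34.04), 2471 bp at 7474197 to 7476667 (33.13), 2456 bp at 1436690 to 1439145 (59.79), 2384 bp at 19871900 to 19874283 (57.23), 2287 bp at 27550442 to 27552728 (25.39) and 2225 bp at 9857092 to 9859316 (61.69). None of the 10 was among the 15 strongest, and their median score was 60.74. The next were 2 peaks of 2181 bp, at 637213 to 639393 and at 1425045 to 1427225. The wide peak at 1436690 lay 5.49 kb from the strong one at 1432043 and within the same dense window, and the wide peak at 10563295 shared its window with the strong one at 10549015.

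Peak-free stretches took up much of the arm. There were 68 gaps longer than 100 kb, which added up to 12.9 Mb, or 46.4% of the span, and 24 gaps longer than 200 kb with 6.45 Mb. Of these 24, 5 lay in the proximal stretch, 10 in the middle and 9 in the distal stretch. The longest was 366 kb, from 11253392 to 11619293. Next came 360 kb from 18607411 to 18967549, 357 kb from 23794270 to 24151587 and 336 kb from 3375359 to 3711629. Those from 13624277 to 13947147 (323 kb), 6713126 to 7017608 (304 kb), 17869826 to 18164376 (295 kb) and 4188789 to 4478649 (290 kb) completed the 8 longest. Of the 16 peaks that border these 8 gaps, 5 were among the 1000 highest, led by the peak of 164.84 at 11619294. The share was 16.4% for all 3R peaks and 28.2% for those with no other centre within 20 kb. A count of 5 is too small to be read as a trait of such borders. Whether reads can be mapped throughout these gaps was not tested.

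The deposited scores took few distinct values, 399 among 1170 peaks, and the most frequent, 9.02, belonged to 27 peaks. For 887 of the 3R peaks (75.8%, 73.3% to 78.2%), the score matched, to within 0.01, the −log10 probability that a Poisson variable with a mean of 66.9 counts exceeds some whole number. This 1 mean was fitted over the whole list as the one with the most matches. The share of scores that would match by accident was not worked out. The share of scores that matched was 78.0% over the whole list, 75.6% on 2L and 2R, 76.2% on 3L, 94.7% on X and 85.6% on chromosome 4. On this series the matching 3R peaks correspond to 1.58 to 7.87 times the background mean, with a median of 2.03. This reading rests on the values alone, and the count behind a score is uncertain by 1.

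Scores off this series were found along the whole arm and at its top. Of the scores, 70.6% (65.2% to 75.6%) matched in the distal stretch, 74.2% (69.9% to 78.2%) in the proximal and 81.6% (77.5% to 85.3%) in the middle stretch. The distal and proximal intervals overlap widely. By Mb the matching share ran from 50.0% to 91.4%. Matching and other peaks had median scores of 13.4 and 14.12 and median widths of 388 and 408 bp, and 16% and 17.7% of them were among the 1000 highest. The strongest peak of the arm, at 8537793, was among those off the series, as were 6 of the 15 strongest, against 283 of all 1170 peaks of 3R. A count of 6 is too small to be read as a trait of the strongest peaks. In the fullest window 31 of 37 scores (83.8%) matched.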

How the data were processed

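ChIP-seq was done on Hr78-GFP larvae (2 ChIP libraries, 1 input). 1 deposited list gives a position and a score per peak. The authors' score has no definition in the sources used here; the file names MACS as the source and FlyBase release 5 as the build, per the file headers. The submitters' processing notes name BWA, MACS2, CASAVA (1.7.0.2 and 1.7.0.3) and BDGP5. Not given in the sources used here are the score threshold, whether replicates were pooled before peak calling and whether they came from separate cultures; the depth is unknown.

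Peaks were put in windows by their centre, arms were taken to end at their last peak, and distances run between centres. A window of 100 kb with at least 15 peaks was called dense, a limit taken with earlier results known. The Poisson mean was searched from 20 to 200 in steps of 0.01, then of 0.0005. Named items are the 15 highest-scoring and 10 widest peaks, the dense windows, groups of 5 or more peaks, the 8 longest peak-free stretches and items beside a limit. The members and lists were chosen with earlier results of these data known. Since a list without values per library allows no test between conditions, none was run. Functions were tested on simulated peaks with known counts, groups and Poisson mean, and they recovered the counts and groups set there. Other score limits, merged peaks, shifted or narrower windows and a narrower tolerance were tried. Coordinates were not carried over to the release 6 gene table. Python 3.11.15, numpy 2.4.6, scipy 1.17.1, pandas 2.3.3 and matplotlib 3.10.9 were used.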

Additional observations from a re-analysis of the deposited data

Results flagged for a closer look

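The separate sequence 3RHet, the assembled heterochromatin of the same arm, was left out of the values above. It held 17 peaks, a signal on a sequence outside the comparisons, with no control list to set them against. They lay between 55188 and 1935379, at 8.78 per Mb, so they were sparser than on 3R. Their median score was 46.63 with a range of 8.75 to 122.36. The 1000 highest scores of the list included 10 of the 17 (58.8%, exact interval 32.9% to 81.6%). This share was 20.8% over all peaks, 16.4% on 3R and 45.4% on chromosome 4. The strongest peak of 3RHet lay at 1898833 to 1899738. Reads shared between repeats were not tested.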

How the results depend on the processing

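Of 21 alternatives for 7 results, 10 moved a value by at most 1.5 times or within the exact interval of a share, and 11 moved it further; none reversed. The density of the proximal over the distal stretch stayed above 1 in all 5 of its alternatives, at 1.26 to 1.35 against 1.43 as reported, the lowest without the dense windows, an alternative chosen after seeing the data. The proximal minus distal difference in median score, -0.32, was 0.00 with the arm cut into 2 equal stretches and -0.83 with peaks at most 500 bp apart merged; the cause was not tested. The share of 3R peaks among the highest was 7.18% with the 500 highest scores and 45.9% with scores at or above the median of the list, by construction, against 10.3% and 50.6% of all peaks. The median distance was 19685 bp at or above that median, 92572 bp among the 1000 highest and 10099 bp after merging, again by construction. Without the dense windows, an alternative also chosen after seeing the data, it was 7936 bp. Dense windows numbered 6 when shifted by 50 kb, 3 at a width of 50 kb and 2 after merging, so their number depends on where windows are cut and on how adjoining peaks are counted; the fullest stayed at 12000001 to 12100000 after merging, with 18. With a tolerance of 0.005, 66.6% of scores matched the Poisson series, lower by construction. No paired analysis was possible because the list has no value per library, and no replicate could be left out. The unknown depth limits how weak peaks can be read.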
